A study of Mus musculus with 2 samples.

Results

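The clustered histone genes encode the proteins that package DNA into chromatin. They were taken as every transcript row whose gene symbol begins with Hist1h, Hist2h, Hist3h or Hist4h, which gave 75 of 28107 rows and 67 of 22072 gene symbols. By type, 6 rows were H1, 22 were H2A, 20 were H2B, 13 were H3 and 14 were H4. The rule used names only and no measured value, but it was set with earlier results of these data known.

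The rows were measured by RNA-seq in lower molar mesenchyme of mouse embryos at embryonic day 14.5. The control library came from Osr2+/- embryos (n = 1) and the mutant library from Osr2-/- embryos (n = 1), both on a mixed background. Which part of Osr2 the mutant allele lacks is not stated in the labels. Heads were frozen, the mesenchyme was cut from sections by laser capture, and material of 3 pairs of samples was pooled before total RNA was taken. The series title names wild type, but the label of the control sample says heterozygous, and that label was followed. With 1 library per genotype there is no replicate, so every difference below compares the libraries and not the genotypes. Per the file names the libraries also ran on different lanes, and an effect of lane and of genotype cannot be told apart.

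Histone mRNAs of these clusters are made in S phase, when newly copied DNA needs new nucleosomes. H2A, H2B, H3 and H4 form the nucleosome core, and H1 binds the linker DNA between cores. Most of these mRNAs carry no poly(A) tail and end after a short stem-loop, which is bound by the stem-loop binding protein. The cDNA kit used here, NuGEN Ovation RNA-Seq v2, is known to prime with random as well as oligo(dT) primers, so reads from mRNAs without a tail can enter the library. The tooth bud mesenchyme is a growing tissue at this stage, and Osr2 codes for a transcription factor with zinc fingers that is made there.

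A stem-loop of 6 paired bases on each side and a loop of 4 bases was looked for after the stop codon of the matching GENCODE mouse transcripts (GRCm38). The first arm had to begin with GG and then a pair of C or T bases, and the arms had to pair perfectly. The GG start was thus set by the search, and a stem of another form counted as no match. All 75 rows matched a transcript, 74 by accession and 1 by symbol. The motif was found in 45 of the 67 genes and had 8 forms. The examples below are the highest member of each type with a match and, for H2B and H4, another high member with a different form. Capitals mark both arms of the stem.
Hist1h1e, H1, GRCm38 chr13:23621777-23621802, minus strand: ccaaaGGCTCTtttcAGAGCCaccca
Hist1h2ab, H2A, GRCm38 chr13:23751567-23751592, plus strand: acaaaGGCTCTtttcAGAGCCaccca
Hist1h2bm, H2B, GRCm38 chr13:21722501-21722526, plus strand: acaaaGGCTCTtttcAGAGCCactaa
Hist1h2bk, H2B, GRCm38 chr13:22036295-22036320, plus strand: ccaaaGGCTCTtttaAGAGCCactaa
Hist2h3c1, H3, GRCm38 chr3:96247322-96247347, plus strand: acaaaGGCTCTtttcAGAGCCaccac
Hist1h4d, H4, GRCm38 chr13:23581945-23581970, plus strand: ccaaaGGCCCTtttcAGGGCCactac
Hist1h4j, H4, GRCm38 chr13:21735432-21735457, plus strand: ctaaaGGTCCTtttcAGGACCaccac
The forms differed by type. The arm GGCTCT stood in all 4 H1, 11 H2A, 9 H2B and 9 H3 genes with a match, and in no H4 gene. The 12 H4 genes with a match had GGCCCT in 10 cases and GGTCCT in 2. In several genes with no match, such as Hist1h2ak and Hist1h2bl, the annotated transcript stops at the end of the coding sequence, so the motif could not be looked for there. In others the sequence after the stop codon was searched without a match, with 2192 bases in Hist2h2be, 742 in Hist1h2bc and 48 in Hist1h1a.

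Promoters were taken from RefSeq (GRCm38.p6), with 250 bases before and 50 after the annotated start, and 61 of the 67 symbols had an entry (62 entries). The stretch before the start is printed for the highest member of each type, because the types differed in which of 3 motifs they held. Capitals mark a match on either strand to TATAAA (the TATA box), to CCAAT (the CCAAT box, which reads ATTGG on the other strand) or to ATTTGCAT (the octamer). 
Hist1h1b, H1, GRCm38.p6 chr13:21780626-21780875, minus strand: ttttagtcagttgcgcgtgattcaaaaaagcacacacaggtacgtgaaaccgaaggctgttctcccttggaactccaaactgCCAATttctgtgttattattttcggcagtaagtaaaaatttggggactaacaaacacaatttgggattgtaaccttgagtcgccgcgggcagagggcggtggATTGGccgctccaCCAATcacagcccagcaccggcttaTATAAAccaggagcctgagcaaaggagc
Hist1h2ak, H2A, GRCm38.p6 chr13:21753913-21754162, minus strand: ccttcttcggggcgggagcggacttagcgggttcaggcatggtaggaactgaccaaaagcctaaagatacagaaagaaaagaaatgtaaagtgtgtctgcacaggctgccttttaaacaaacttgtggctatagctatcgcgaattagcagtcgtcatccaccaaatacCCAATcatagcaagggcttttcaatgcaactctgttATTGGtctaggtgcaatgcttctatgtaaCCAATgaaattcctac
Hist1h2bl, H2B, GRCm38.p6 chr13:21716184-21716433, minus strand: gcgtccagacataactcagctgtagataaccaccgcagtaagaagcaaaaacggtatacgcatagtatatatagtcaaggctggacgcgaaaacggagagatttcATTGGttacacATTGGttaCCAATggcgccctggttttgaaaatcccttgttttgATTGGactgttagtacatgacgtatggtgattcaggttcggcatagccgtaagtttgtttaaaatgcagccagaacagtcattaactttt
Hist2h3b, H3, GRCm38.p6 chr3:96268404-96268653, plus strand: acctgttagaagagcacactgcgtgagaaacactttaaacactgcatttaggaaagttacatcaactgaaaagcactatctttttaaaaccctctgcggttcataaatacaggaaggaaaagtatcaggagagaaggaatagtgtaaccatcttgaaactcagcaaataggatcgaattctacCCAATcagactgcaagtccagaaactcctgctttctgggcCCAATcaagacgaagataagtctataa
Hist1h4d, H4, GRCm38.p6 chr13:23581318-23581567, plus strand: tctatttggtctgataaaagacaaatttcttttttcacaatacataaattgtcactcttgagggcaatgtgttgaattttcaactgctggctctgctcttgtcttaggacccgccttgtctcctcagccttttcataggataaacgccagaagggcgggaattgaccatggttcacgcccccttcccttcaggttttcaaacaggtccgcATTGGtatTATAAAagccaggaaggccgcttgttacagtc
The CCAAT motif lay in all 6 H1, 18 H2A, 16 H2B and 10 H3 promoters but in 3 of 12 H4 promoters, against 37.4% of all 32851 promoters of that length. Those 3 were Hist1h4a, Hist1h4c and Hist1h4d. TATAAA was found in 35 of the 62 histone promoters (56.5%) and in 13.6% of all promoters. In Hist1h2ak it lies 21 bases after the annotated start and so beyond the stretch printed. ATTTGCAT, the octamer that POU factors such as Oct1 bind, was found in 7 H2A and 7 H2B promoters and in none of H1, H3 or H4, against 1.74% of all promoters. Neighbouring H2A and H2B genes can share the stretch searched, so 1 match can count under both types. Both neighbours held the octamer, for example, in Hist1h2ae with Hist1h2bg and in Hist1h2ah with Hist1h2bk. Whether these are the same site was not tested. A match is a description of the letters, not a bound site.

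**Figure D1:**
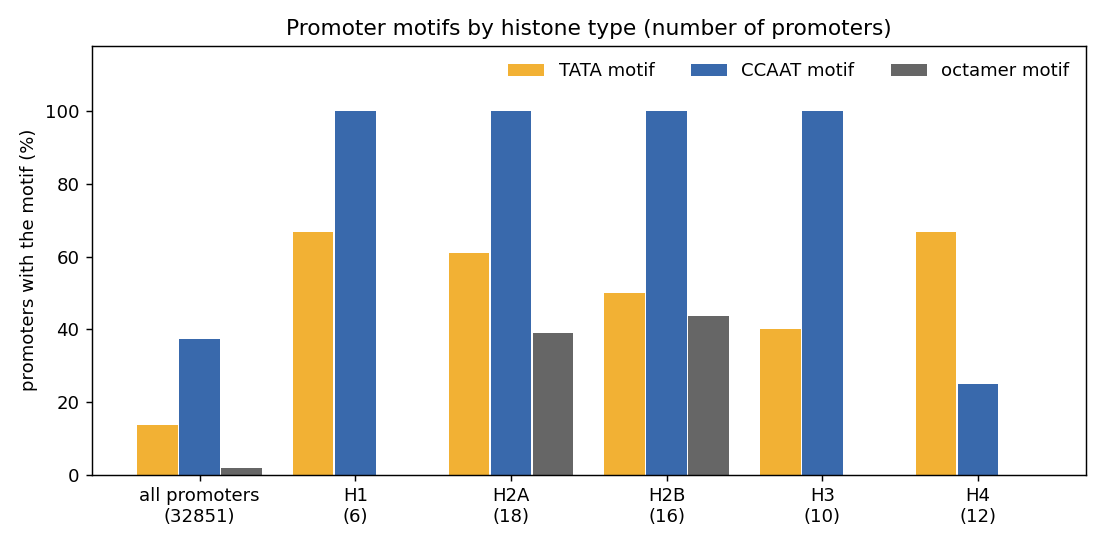
The share of promoters (%) that hold each of 3 motifs on either strand is drawn for all promoters and for each histone type, with the number of promoters in brackets. CCAAT reaches 100% in H1, H2A, H2B and H3 and 25% in H4, and the octamer occurs in H2A and H2B among the histone types.

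The depth of the libraries was estimated from coverage at about 5.38 M mapped reads for the control and 34.3 M for the mutant, 6.38 times as many. Osr2 itself, at mm9 chr15:35225867-35233060, was at 38.7 RPKM (reads per kilobase, scaled to the mapped reads of the library) in the control against 9.16 RPKM in the mutant. This is 4.23-fold lower (3.69 to 4.84). Ranges in brackets after a fold are 95% counting intervals, which come from approximate reads (coverage times row length over an estimated 44.3 bases per read) and cover counting error only. Where levels are given as a pair, the control comes first. All 10 dental mesenchyme markers looked for, among them Msx1 and Pax9, were above 1 RPKM in both libraries. Their summed level was 577 RPKM in the control against 484 RPKM in the mutant. Of 12 dental epithelium markers, 11 had a row under their symbol and summed to 40.6 and 57.2 RPKM, with Shh listed at 0 in the control. Summed levels were 798 and 614 RPKM for 8 erythroid markers, 26.9 and 21.9 RPKM for 6 endothelial markers, 4.61 and 4.81 RPKM for 5 macrophage markers, and 2.03 and 4.56 RPKM for 4 neuronal markers, of which Tubb3, Elavl3 and Stmn2 were listed at 0 in the control. The part of these other cells in the histone values was not tested. In such bulk tissue, fewer cells of a type and less RNA per cell cannot be told apart.

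Histone RNA was abundant and close to equal in the libraries. The 75 rows summed to 7489 RPKM in the control against 7676 RPKM in the mutant, a ratio of 1.02. They held about 17545 and 116476 approximate reads, which is 1.37% and 1.48% of the reads on listed transcripts. Of the rows, 63 reached 1 RPKM in at least 1 library and were compared further. A row counts as apart when the ratio of RPKM + 1 is at least 2, and 1 histone row was higher by that rule and 0 were lower. Over all 10951 rows at that level, 5.1% were higher and 4.21% were lower. A level within 1.25-fold was found for 55 of the 63 histone rows, against 53.9% of all rows. Histone rows are abundant, and among rows with a mean of at least 10 RPKM the count was 49 of 54 histone rows (90.7%) against 80.8% of all such rows. The median log2 ratio of RPKM + 1 was 0.05 for the histone rows and -0.05 for all rows. Across the 63 rows, the log levels of the libraries had a Pearson r of 0.991, against 0.900 across all rows. Both are descriptions across transcripts, which are not independent and include rows with shared sequence. The r values were not matched for level, and the tested histone rows had a median of 68.7 RPKM in the control.

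**Figure D2:**
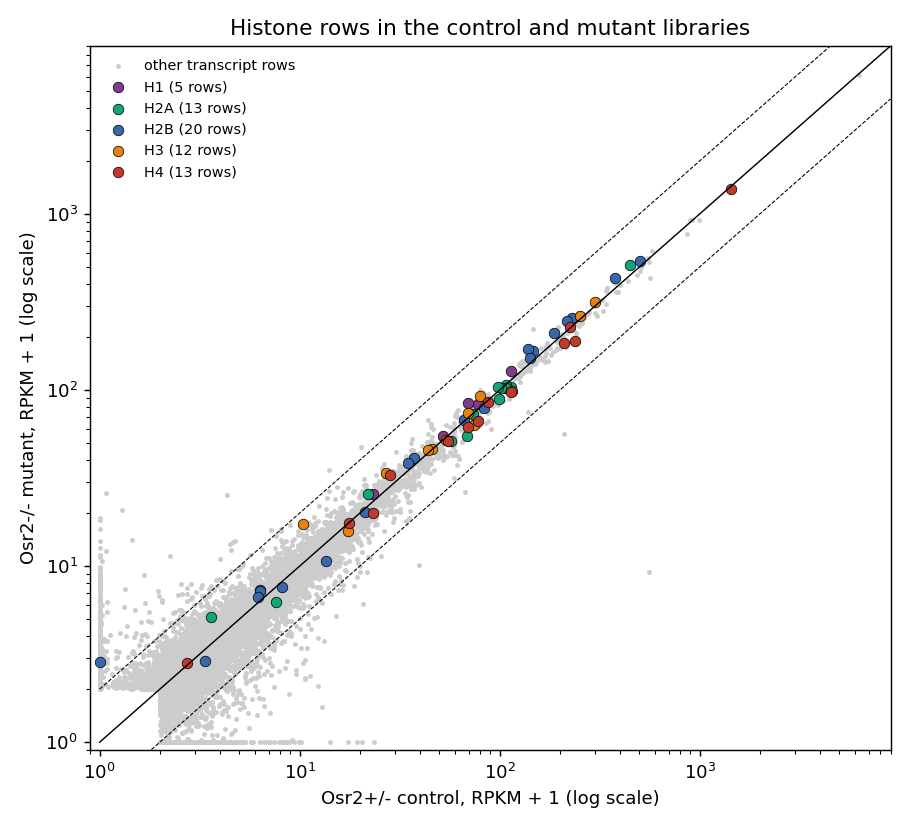
Each point is a transcript row, with RPKM + 1 in the control on the x axis and in the mutant on the y axis (both log scales). Histone rows are coloured by type over all other rows in grey, the solid line marks equal levels and the dashed lines 2-fold, and 1 H2B row lies beyond the upper dashed line.

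The types took different directions on the summed level, all of them small. H1 summed to 332 RPKM in the control against 372 RPKM in the mutant, a ratio of 1.12 (95% counting interval of approximate reads 1.07 to 1.17). H2B summed to 2212 and 2447 RPKM, a ratio of 1.11 (1.07 to 1.13). These intervals lay above 1. H2A summed to 1294 and 1331 RPKM, a ratio of 1.03 (0.99 to 1.07), and H3 summed to 1079 and 1105 RPKM, a ratio of 1.02 (0.99 to 1.07), both with an interval that held 1. H4 was the type with a lower sum in the mutant, at 2571 and 2421 RPKM, or 0.94 times (0.91 to 0.97). With RPKM rescaled so that the listed transcripts have the same total in each library, the ratios were 1.15 for H1, 1.14 for H2B, 1.06 for H2A, 1.06 for H3 and 0.97 for H4. Intervals were not rescaled, so whether one holds 1 applies to the deposited scale only. Over all rows tested the median ratio of RPKM + 1 was 0.966, which lies inside the H4 interval. All these intervals leave out amplification and any difference between embryos.

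The order of the sums was not the same in the libraries. By summed RPKM, H4 stood first in the control, then H2B, H2A, H3 and H1, while in the mutant H2B and H4 were nearly equal, with H2B just above. The ratio of H2B to H4, which no rescaling of a whole library can move, was 0.860 in the control against 1.01 in the mutant, 1.18 times as high. H2B to H2A was 1.71 and 1.84. The ratio of H1 to the core types was 0.0464 and 0.0509. Summed coverage, which the files give without scaling for library size, was 527 for H2B and 612 for H4 in the control, and 3716 and 3675 in the mutant.

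**Figure D3:**
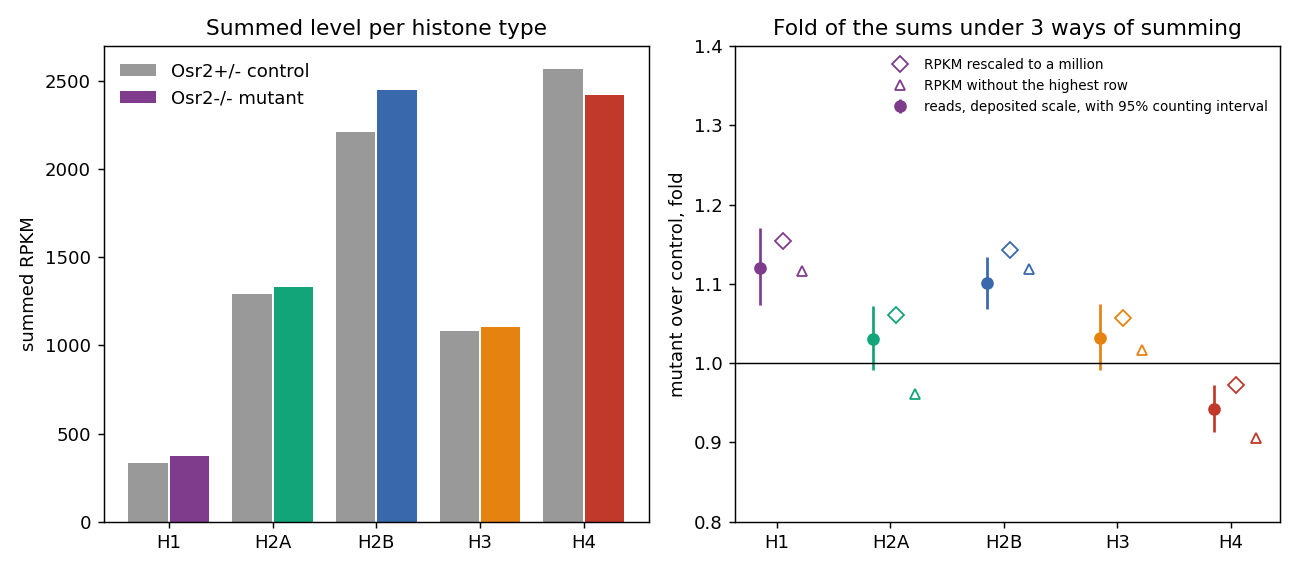
Left, summed RPKM per histone type in the control (grey) and the mutant (coloured). Right, mutant over control for each type as the fold of approximate reads with its 95% counting interval (filled circle), on RPKM rescaled to the same total in each library (diamond) and without the highest row (triangle): H1 and H2B lie above 1 and H4 below 1 in each case, and H2A falls to 0.96 without its highest row.

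Direction was mostly shared among the rows of H1, H2B and H4, and mixed in H2A and H3. Levels above the control were found for 5 of 5 H1 rows, 15 of 20 H2B rows, 8 of 12 H3 rows, 5 of 13 H2A rows and 3 of 13 H4 rows. Over all rows tested, 43.4% were above the control. A counting interval above 1 was found for 2 H1, 2 H2A, 6 H2B, 1 H3 and 0 H4 rows, and below 1 for 0, 1, 0, 2 and 2 rows in that order. Over all rows 12.9% had an interval above 1 and 21.5% below 1.

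**Figure D4:**
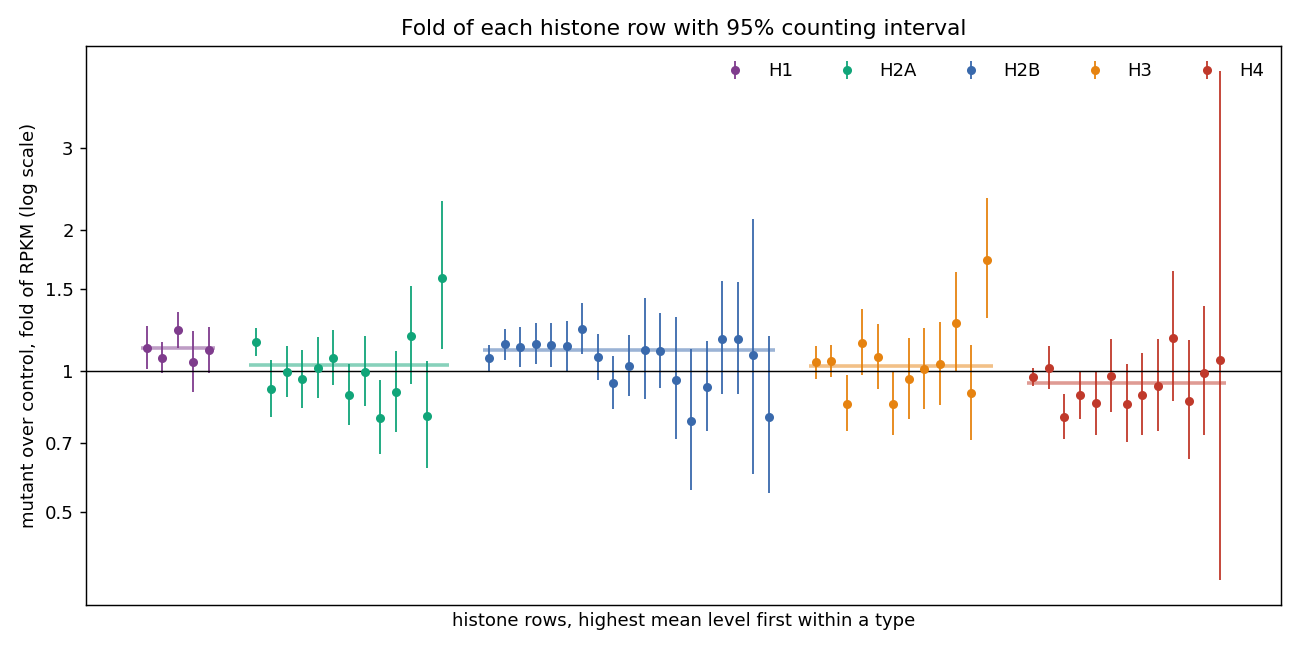
The fold of RPKM, mutant over control (log scale), is drawn for the histone rows tested with its 95% counting interval, highest mean level first within each type, with a horizontal bar at the fold of each type's sum. The Hist1h2be isoform row with about 0 reads in the control is left out, and most H2B points lie above 1 and most H4 points below it.

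The linker histone H1 was represented by 5 somatic genes. Hist1h1b, at chr13:21871752-21872423 (coordinates of measured rows are mm9), was the highest, with 114 RPKM in the control against 127 RPKM in the mutant (1.12-fold, 95% counting interval 1.01 to 1.25). It made up 34.2% and 34.3% of the H1 sum. Hist1h1e (chr13:23712497-23714427) was at 77.0 and 82.3 RPKM (1.07-fold, 0.99 to 1.15). Hist1h1c (chr13:23830676-23832236) was at 68.4 and 83.6 RPKM (1.22-fold, 1.12 to 1.34). In the mutant it was listed just above Hist1h1e, with overlapping level intervals (81.2 to 86.1 and 80.1 to 84.5 RPKM). Hist1h1a and Hist1h1d were at 51.1 and 22.3 RPKM in the control, and the mutant values were 53.5 and 24.7 RPKM. No H1 gene above 1 RPKM was lower in the mutant. Hist1h1t, the linker histone of spermatocytes, was listed at 0 in the control and at 0.176 RPKM in the mutant.

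H2A pairs with H2B in the nucleosome, and a single gene stood above the other H2A rows. Hist1h2ak (chr13:21845304-21845696) was at 446 RPKM in the control against 515 RPKM in the mutant (1.16-fold, 1.08 to 1.24) and held 34.4% and 38.7% of the H2A sum. Next came Hist1h2ai, Hist1h2ab, Hist1h2ad, Hist1h2ah, Hist2h2ac and Hist1h2ag, with control levels from 97.3 RPKM (Hist1h2ag) to 113 RPKM (Hist1h2ai). Hist1h2ai (chr13:21808291-21808683) was at 113 and 104 RPKM (0.92-fold, 0.80 to 1.06) and Hist1h2ab (chr13:23842957-23843462) at 106 and 106 RPKM (0.99-fold, 0.88 to 1.13). The listed order within this group differed between the libraries, but the counting intervals in the control overlap. Hist2h2ac and Hist1h2ag were at 98.4 RPKM (85.5 to 112.8) and 97.3 RPKM (85.6 to 110.2) in the control. In the mutant they were at 87.6 RPKM (82.7 to 92.8) and 103.7 RPKM (98.8 to 108.7). Their folds, 0.89 (0.77 to 1.04) and 1.06 (0.93 to 1.22), both had an interval that held 1. Leaving out Hist1h2ak turned the H2A ratio from 1.03 to 0.96, so the direction of the H2A sum rests on that row. Hist2h2ab was lower in the mutant, at 68.0 and 54.0 RPKM (0.79-fold, 0.66 to 0.96). Hist1h2ac was at 2.60 and 4.11 RPKM (1.58-fold, 1.12 to 2.31), about 35 reads in the control.

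Of the 20 H2B rows, 15 were above the control, counting Hist1h2bq with its 2 equal copies and the Hist1h2be isoform row described below. Hist1h2bl (chr13:21807632-21808012) was at 503 RPKM in the control against 536 RPKM in the mutant (1.07-fold, 0.999 to 1.14). Hist1h2bm (chr13:21813967-21814347) was at 379 and 432 RPKM (1.14-fold, 1.06 to 1.23) and Hist1h2bf (chr13:23665679-23666059) at 228 and 257 RPKM (1.12-fold, 1.02 to 1.24). These were the top 3 H2B rows in both libraries and held 50.2% and 50.1% of the sum. Hist1h2bk, Hist1h2bn and Hist1h2bh were at 216, 185 and 146 RPKM in the control, and the mutant values were 246, 210 and 165 RPKM. Hist1h2bj had the highest fold of the 8 H2B rows of coding length, with 138 and 170 RPKM (1.23-fold, 1.09 to 1.396). Rows of coding length are as long as the longest open reading frame of their transcript, and that frame is close to the median of the type. All 8 such H2B rows were above the control. Their sum gave 1.12 (1.09 to 1.16), against 1.03 (0.98 to 1.10) for the 12 longer H2B rows.

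Hist1h2ba, known as the testis-specific H2B, was at 36.2 RPKM in the control against 40.2 RPKM in the mutant, on about 75 and 530 reads. The other testis genes on the list were near 0 in both libraries, with Hist1h2aa at 0.00539 and 0.0173 RPKM, and Hils1 and H1fnt listed at 0. Of the 50-base windows of the Hist1h2ba transcript, 61.8% were found in no other gene, against a median of 55.5% for H2B. The labels do not say how reads shared between copies were divided. The row at least 2-fold apart was an isoform of Hist1h2be (chr13:23675539-23712963), listed at 0.000244 RPKM in the control, about 0 reads, and at 1.85 RPKM in the mutant, about 157 reads. The other isoform row of the gene, which spans nearly the same locus, was at 7.15 and 6.61 RPKM. Summed over the isoforms, Hist1h2be was at 7.15 and 8.46 RPKM (1.18-fold, 0.95 to 1.47). Both isoform rows also overlap part of the Hist1h1e row. At the level of genes no histone was 2-fold apart, against 0.89% of 9779 genes higher and 0.798% lower.

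H3 was led by the second cluster, on chromosome 3. Neither of its top rows, Hist2h3b and Hist2h3c1, has a 50-base window of its own (0% unique), so their separate levels depend on how shared reads were divided. Hist2h3b (chr3:96072617-96073027) was at 300.3 RPKM in the control against 313 RPKM in the mutant (1.04-fold, 0.96 to 1.13). Hist2h3c1 (chr3:96050674-96051219) was at 251 and 263 RPKM (1.05-fold, 0.97 to 1.14), with a further copy of the gene listed at 0 in both. Hist1h3e (chr13:23653824-23654234) was at 114 and 97.3 RPKM (0.85-fold, 0.74 to 0.98). Hist2h3b held 27.8% of the H3 sum in the control against 28.3% in the mutant, and Hist2h3c1 held 23.3% against 23.8%. Hist2h3c2-ps, annotated as a pseudogene, was at 9.43 and 16.3 RPKM (1.73-fold, 1.30 to 2.35). Its row of 1012 bases holds the 546 bases of the Hist2h3c1 copy listed at 0, so reads of the shared stretch cannot be divided between them. Of the 50-base windows of its transcript, 36.5% were found in no other gene. The other H3 rows were between 0.85-fold and 1.27-fold, with Hist1h3a at 25.9 and 32.8 RPKM as the highest fold (0.99 to 1.63).

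H4 had the highest row of the family and most of its members leaned below the control. Hist1h4d (chr13:23673471-23673782) was at 1436 RPKM in the control against 1393 RPKM in the mutant (0.97-fold, 0.93 to 1.01) and made up 55.9% and 57.5% of the H4 sum. Hist2h4 (chr3:96066893-96067240) was at 225 and 228 RPKM (1.02-fold, 0.92 to 1.13). Hist1h4c (chr13:23790007-23790318) was at 236 and 188 RPKM (0.80-fold, 0.72 to 0.89), the lowest fold of the H4 rows. Hist1h4j, Hist1h4a, Hist1h4b and Hist1h4k were at 208, 113, 77.0 and 68.4 RPKM in the control, and the mutant values were 184, 96.2, 65.5 and 60.9 RPKM, between 0.85-fold and 0.89-fold. Hist4h4, the gene on chromosome 6, was the H4 row with the highest fold, at 27.2 and 32.0 RPKM (1.18-fold, 0.86 to 1.64). Without Hist1h4d the H4 ratio was 0.91. In the 4 longer H4 rows it was 1.002 (0.91 to 1.10), and in rows of coding length 0.93 (0.90 to 0.97). The drop in summed RPKM lay in the rows of coding length. The intervals overlap, so a difference in ratio between these classes is not shown.

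**Figure D5:**
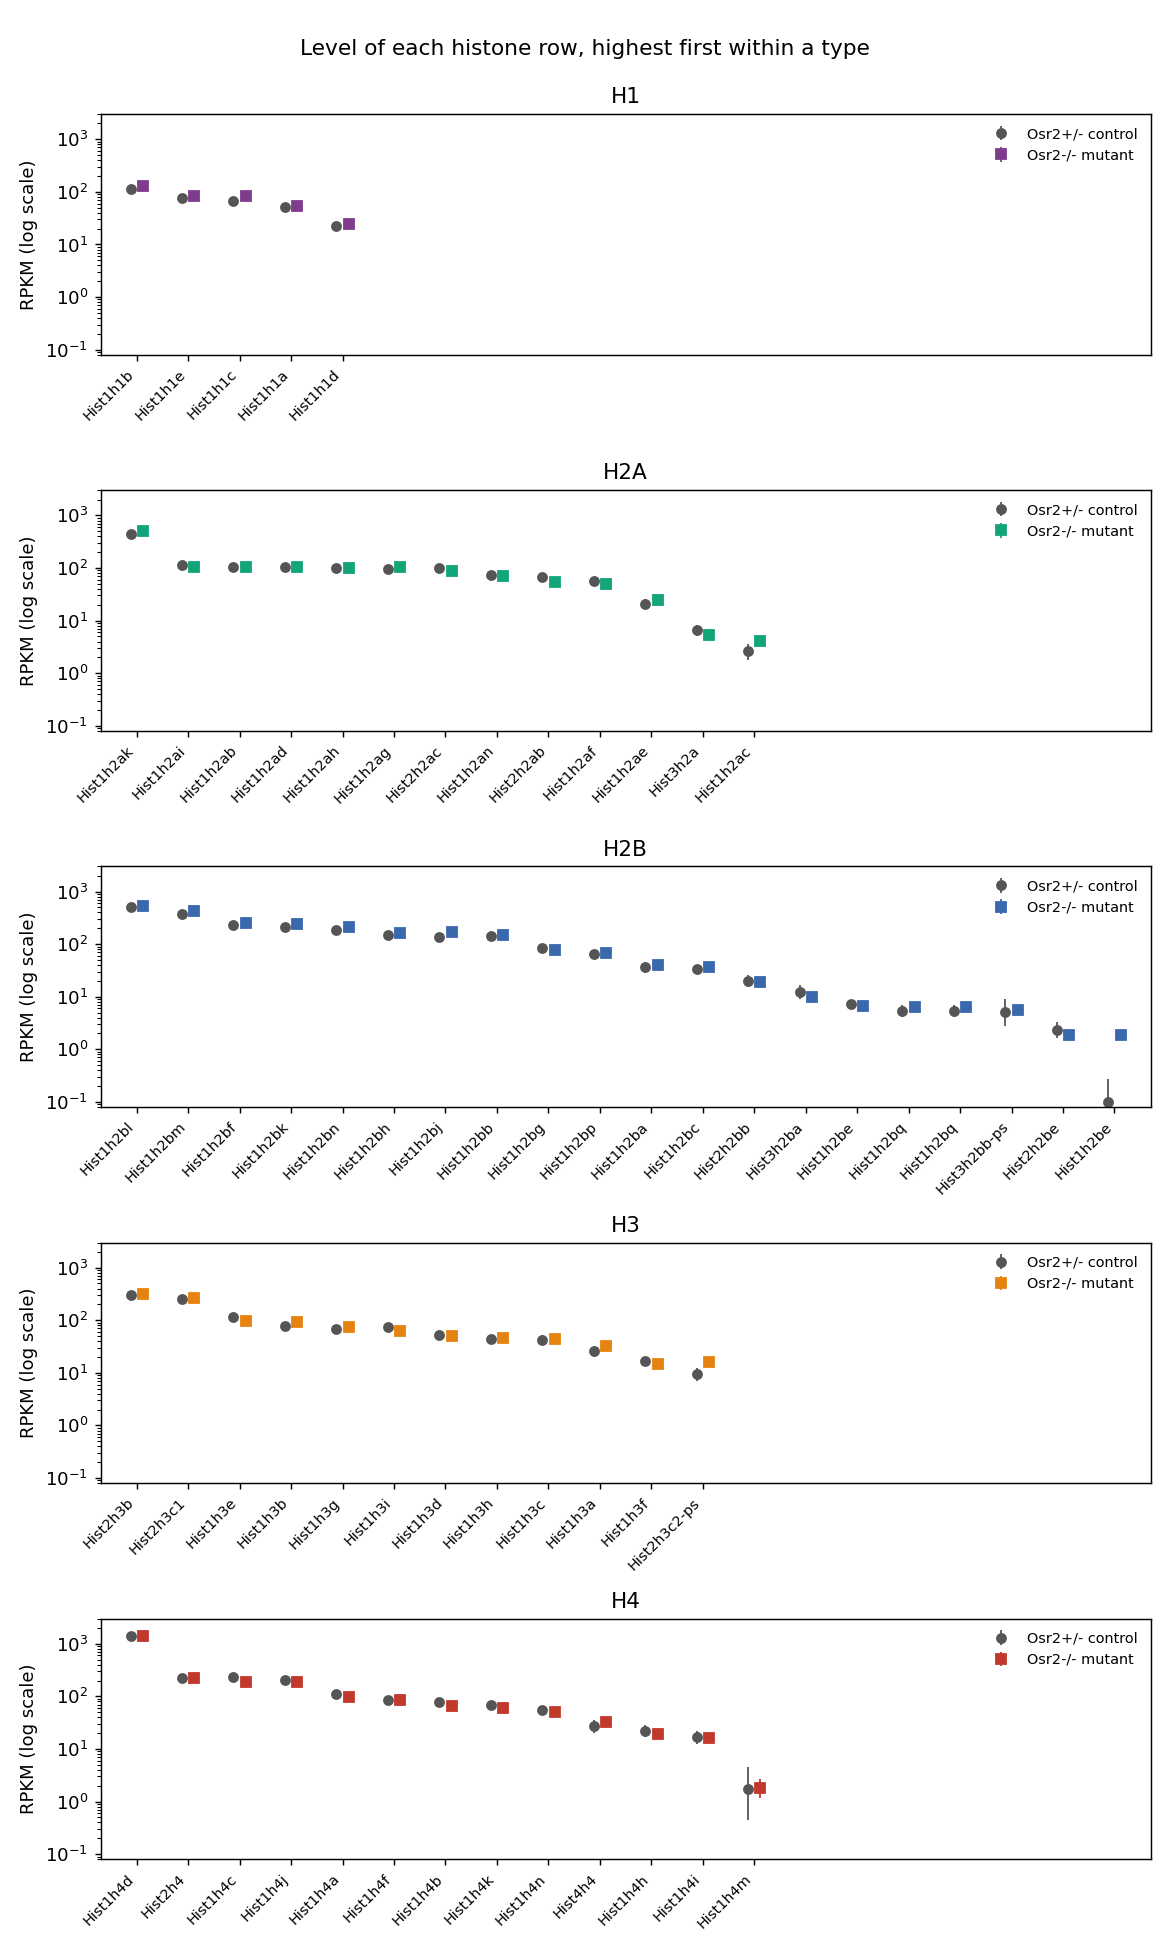
RPKM (log scale) of each histone row at 1 RPKM or more in at least 1 library, by type, in the control (grey circles) and the mutant (coloured squares), with 95% counting intervals. Levels span from under 3 RPKM to 1436 RPKM (Hist1h4d), the markers of a row mostly touch, and the control value of the last H2B row, 0.000244 RPKM, is drawn at the lower edge.

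By place in the genome, the 58 rows of the Hist1 cluster on chromosome 13 held 86.3% of the histone RPKM in the control against 86.5% in the mutant. The 13 rows of the Hist2 cluster on chromosome 3 held 13.01% and 12.8%. The 3 rows of the Hist3 cluster on chromosome 11 summed to 24.3 and 20.7 RPKM, 0.85-fold, on about 125 reads in the control.

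Across the family, the level went with how the row was annotated. Among core histone rows at 1 RPKM or more, the 29 rows of coding length had a median of 113 RPKM in the control against 102 RPKM in the mutant. The 29 longer rows had a median of 20.9 and 19.3 RPKM. They include Hist2h3c1 and Hist3h2bb-ps, whose open reading frame fills the row but is longer than the median of the type. RPKM is per kilobase of the annotated row, and whether these genes also differ in transcript number was not tested. The largest contrast by type was in H2B, with medians of 200.4 and 228 RPKM for coding-length rows and 9.82 and 8.18 RPKM for longer ones.

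The copies resemble each other closely, which limits how far 1 gene can be told from the next. Coding sequence here means the longest open reading frame from ATG in the matched transcript. The coding sequences of all 13 H4 genes translate to the same protein, while their DNA was between 85.3% and 100% identical. The 18 H2A genes gave 9 predicted proteins, the 18 H2B genes 13, the 12 H3 genes 3 and the 6 H1 genes 6. These counts include pseudogenes and long frames. Hist2h3c1 and Hist2h3c2-ps had 546 bases against an H3 median of 411, and Hist3h2bb-ps had 465 against an H2B median of 381. The share of 50-base windows found in no other gene was taken over the matched GENCODE transcripts. Its median was 98.9% for H1, 26.99% for H2A, 55.5% for H2B, 38.02% for H3 and 60.5% for H4. Such a transcript can be longer than the measured row. For Hist1h4d the row has 312 bases and the transcript 1138, of which 822 lie after the stop codon. The share within the measured rows was not tested. Of the 75 rows, 10 were listed at 0 in both libraries. All 10 had a further copy or an overlapping histone row, against 19 of all 75 rows. Of the 10 rows, 8 were of the H2A genes Hist1h2ao, Hist1h2ap, Hist2h2aa1 and Hist2h2aa2. A value of 0 there may be a failed estimate and is not read as absence. In rows whose transcript had at least 50% unique windows the ratio was 1.09 for 12 H2B rows (1.03 to 1.13). It was 0.95 for 9 H4 rows (0.92 to 0.98). Some rows met this limit through sequence outside the measured row, so these ratios cannot show how shared reads were divided. For H2A it was 1.14 (0.95 to 1.31), from 4 rows that sum to 30.2 RPKM in the control. For H3 it was 1.03 (0.92 to 1.14), from 4 rows that sum to 138 RPKM there. All 6 H1 rows met this limit, so their ratio was the same.

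H2A and H2B genes are known to lie often as neighbours that share the promoter stretch between them. Among rows at 1 RPKM or more, 10 such neighbours lay within 1000 bases of each other, with gaps of 172 to 334 bases. Neighbours with a row below that level, such as Hist1h2ba and Hist1h2aa, were not compared. H2B was above H2A in both libraries in 6 of the 10, and H2B over H2A had a median of 1.78 in the control against 2.03 in the mutant. Some neighbours were far from equal in RPKM, which is per kilobase of rows that can differ in length. Hist1h2bl was at 4.46 times the level of its neighbour Hist1h2ai in the control and 5.18 times in the mutant. Their transcripts have 17.2% and 9.9% unique 50-base windows, so their separate levels depend in part on how shared reads were divided. Hist1h2bn stood at 0.415 and 0.408 times Hist1h2ak. For Hist2h2ac and Hist2h2be the values were 98.4 and 2.37 RPKM in the control, and 87.6 and 1.89 RPKM in the mutant. These rows have 390 and 2618 bases, with about 206 and 33 reads in the control, so their reads differ less than their RPKM. Levels of genes with and without the octamer overlapped widely, and Hist1h2bm and Hist1h2bk, among the highest H2B genes, carry it. The 7 H2B entries with it had a median of 82.7 RPKM in the control against 78.1 RPKM in the mutant, and the 9 entries without it 138 and 165 RPKM. Hist1h2be has an entry of each kind and counts in both. In H2A the medians were 20.9 and 24.8 RPKM for the 7 genes with it, and 68.0 and 54.0 RPKM for the 11 without it, of which 4 were listed at 0.

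Other genes of histone supply were also close to equal. Listed variant histones not in these clusters, most of which replace the S-phase forms outside replication, summed to 1173 and 1189 RPKM over 11 genes. H2afz (H2A.Z) was at 576 and 614 RPKM, H3f3a (H3.3) at 257 and 244 RPKM and H2afx (H2A.X) at 148 and 163 RPKM. The largest log2 ratios on this list were 0.38 for H2afj, at 1.92 and 2.80 RPKM, and -0.26 for H3f3b, at 51.2 and 42.5 RPKM. None of the 11 was 2-fold apart, and 2 had an interval above 1 and 3 below it, against 7.84% and 15.9% of all genes.

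Of 16 genes for transcription and processing of histone mRNA, 14 were at 1 RPKM or more and 0 were 2-fold apart on RPKM + 1. Slbp, the stem-loop binding protein, was at 10.97 and 11.8 RPKM. Cpsf3, the endonuclease that cuts after the stem-loop, was at 8.28 and 10.8 RPKM (1.30-fold, 1.07 to 1.60), and Sympk, its scaffold, at 6.66 and 7.78 RPKM. Lsm10, a subunit of the U7 particle that binds downstream of the stem-loop, was at 6.49 and 3.23 RPKM (0.50-fold, 0.33 to 0.78), the lowest log2 ratio on the list at -0.83. Intervals above 1 were found for 2 genes and below 1 for 2, against 7.84% and 15.9% of all genes. Of all genes, 0.89% were 2-fold higher and 0.798% lower. The list's median log2 ratio was -0.08, against -0.05 for all genes.

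Histone chaperones, which carry histones to DNA, had a median log2 ratio of 0.09 over 12 genes, against -0.05 for all genes. None was 2-fold apart, and 1 interval lay above 1 and 0 below it, against 7.84% and 15.9% of all genes. Nap1l1 was at 52.2 and 52.3 RPKM, Anp32e at 25.9 and 27.8 RPKM and Nasp at 20.8 and 22.1 RPKM. Asf1b had the highest log2 ratio, 0.46, at 1.05 and 1.81 RPKM with an interval that held 1, followed by Hjurp at 4.33 and 5.31 RPKM (1.23-fold, 1.06 to 1.43).

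The 20 genes of S phase and DNA replication summed to 278 RPKM in the control against 279 RPKM in the mutant. None was 2-fold apart, against 0.89% of all genes higher and 0.798% lower. The interval lay above 1 for Pola1 (1.26-fold) and Rrm2 (1.21-fold) and below 1 for Mcm2 (0.85-fold) and Cdc45, against 7.84% and 15.9% of all genes; these were named after their values were seen, apart from Cdc45. The median log2 ratio was 0.02. Pcna, the sliding clamp of DNA polymerase, was at 65.8 and 63.8 RPKM, Ccna2 (cyclin A2) at 30.9 and 33.0 RPKM and Rrm1, a subunit of ribonucleotide reductase, at 18.5 and 18.5 RPKM. Cdc45, part of the replicative helicase, had the lowest log2 ratio, -0.39, at 4.52 and 3.21 RPKM (0.71-fold, 0.48 to 0.91), followed by Gins2, another part of that helicase, at 19.3 and 15.7 RPKM (0.81-fold, 0.66 to 1.01).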

How the data were processed

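RNA-seq tables of 1 control and 1 mutant library were used. The submitters' processing notes name Bowtie 0.12.7, TopHat 1.4.1 and the build mm9. Cufflinks appears only in the file names, without a version. The deposited RPKM was used as the authors gave it. Coverage, deposited without scaling for library size, is the average read depth along the transcript, per the file headers. Rows were joined on transcript, locus, symbol and length, and starts are given counted from 1. Left out were 54 rows, 0 of them histone rows, whose quantification status was failed or high-data. Approximate reads are coverage times length over 44.3 bases, which averages the libraries' median product in the window from 20 to 66 bases. Among low values, 27.1% (control) and 25.4% (mutant) came within 0.1 of a whole read, so this step is weakly supported. From these reads come 95% exact intervals (Poisson for levels, Clopper-Pearson for folds), which cover counting error only, since amplified reads are not independent molecules. The log2 ratio used RPKM + 1, for rows at 1 RPKM or more in at least 1 library, and understates low rows. A fold is a plain ratio of RPKM. Scripts (Python 3.11.15, pandas 2.3.3, numpy 2.4.6, scipy 1.17.1) were tested on simulated data. Named were Osr2, the 3 highest rows per type, rows 2-fold apart, and of each other list the 3 highest genes and the 2 with the largest log2 ratio; other histone genes were named after their values were seen. Members and lists were chosen with earlier results of these data known. Alternatives changed the pseudocount, filter, scale, row summing, status filter, read step and the rows entering each sum.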

Additional observations from a re-analysis of the deposited data

How the results depend on the processing

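The ratios of H1, H2B and H3 stayed above 1 under each setting run. Taking 1 read as 100 bases cannot move a ratio of RPKM sums, and keeping rows of any status cannot move a histone value, since 0 histone rows had such a status. The count of rows 2-fold higher was 0 with a filter of 5 RPKM, 0 with rows summed per symbol and 2 of 64 on the TPM scale (which adds Hist1h1t), where 14.4% of all rows were higher and 9.65% lower. The count of rows 2-fold lower was 0 under each setting. The TPM scale multiplies folds by 1.03 and gave a median log2 ratio of 0.10 and an H2B ratio of 1.14. Without the highest row, H2A was 0.96 and H4 was 0.91. Some alternatives were chosen after seeing the data. Rows whose matched transcript had at least 50% unique windows gave 1.14 for H2A, and longer rows alone gave 1.03 for H2B and 1.002 for H4. No paired analysis was possible because each genotype has 1 library. The shallower control limits precision: 3 reads on a transcript of 1 kilobase equal 0.558 RPKM there and 0.0875 RPKM in the mutant.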
